A study of Homo sapiens with 12 samples.

Results

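The S100 proteins and annexins were followed through 10 genes, S100A4, S100A6, S100A10, S100A11 and S100A13, and ANXA1, ANXA2, ANXA4, ANXA5 and ANXA6, out of 58395 genes counted. They were chosen by gene symbol, and each symbol matched 1 row of the count table. RNA sequencing covered 3 human leukemia lines with 4 libraries each. Edit-3, in full K/VP.5/edit-3, is 1 clone of K/VP.5 cells whose TOP2A gene, for topoisomerase IIα, was changed by CRISPR/Cas9 with a repair oligonucleotide at the 5′ splice site between exon 19 and intron 19. K/VP.5 is an etoposide-resistant clone derived from K562, with the splice site unchanged; etoposide holds topoisomerase II on broken DNA. K562 is the parental line, an established line from chronic myeloid leukemia with the BCR-ABL fusion. The labels describe upkeep with 0.5 µM etoposide every other week in 1 sentence for the 3 lines together, so whether K562 received the drug cannot be told from them. Nothing in the labels says that the 4 libraries per line were separate cultures, and p-values then reflect the spread among the libraries alone, which may be technical.

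S100 proteins are small calcium-binding proteins with paired EF-hand motifs; on binding calcium most of them open a pocket that grips other proteins. Annexins bind acidic phospholipids of membranes when calcium rises, and through the core domain they share they link membranes to each other and to the cytoskeleton. The families meet where an S100 dimer binds the N-terminal tails of annexins, as S100A10 does with annexin A2 and S100A11 does with annexin A1, and such complexes act in vesicle traffic, at cell surface proteases and in the repair of torn membranes.

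The libraries held 25.3 M to 37.1 M reads each, and 18286 genes passed the filter on low counts. TOP2A changed in all 3 comparisons, with a log2 fold change of -0.53 for K/VP.5 versus K562, 0.21 for edit-3 versus K/VP.5 and -0.32 for edit-3 versus K562 (edgeR, Benjamini-Hochberg adjusted p = 1.2e-05, 0.027 and 0.001). A count per gene does not separate transcripts with and without intron 19. Of 10 genes that mark K562 cells, 9 had a mean of 1 or more CPM, read counts scaled to library size, in each line, and the remaining one, HBE1, stood at 0.331, 0.252 and 0.708 CPM in edit-3, K/VP.5 and K562. Edit-3 replicate 2 stood apart from its line: 113 of 14096 genes were at least 2-fold above each of the other 3 edit-3 libraries there, against 12 to 17 such genes in those 3. Edit-3 replicate 1 had 195 genes at or below 0.5 times each of the others, and K562 replicate 4 had 255 genes at least 2-fold above the others of its line.

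The S100 members lie together on chromosome 1, and the annexin members on 5 different chromosomes. In GENCODE release 29 on GRCh38, S100A10 (ENSG00000197747) spans chr1:151982915-151994390 and S100A11 (ENSG00000163191) chr1:152032506-152047907, 38115 bases apart. Farther along are S100A6 (ENSG00000197956, chr1:153534599-153536244), S100A4 (ENSG00000196154, chr1:153543613-153550136) and S100A13 (ENSG00000189171, chr1:153618787-153631360), and all 5 are transcribed from the minus strand. ANXA1 (ENSG00000135046) lies at chr9:73151757-73170393 on the plus strand and ANXA2 (ENSG00000182718) at chr15:60347134-60402883 on the minus strand. ANXA4 (ENSG00000196975) lies at chr2:69644425-69827100 on the plus strand. ANXA5 (ENSG00000164111) and ANXA6 (ENSG00000197043), both on the minus strand, lie at chr4:121667955-121697113 and chr5:151100712-151157882.

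The promoters below are of the 4 members the results turn on most: S100A6 and ANXA2, which were higher in edit-3 than in both other lines, S100A10, the partner of annexin A2, and S100A11, which was lower in both sublines than in K562. Each runs 5′ to 3′ on the minus strand from 250 bases before to 50 bases after the RefSeq start site in GRCh38.p14, at chr1:153535942-153536241 for S100A6, chr15:60397937-60398236 for ANXA2, chr1:151993810-151994109 for S100A10 and chr1:152036955-152037254 for S100A11. Capitals mark matches on either strand to TATAA (as in core promoters), GGGCGG (bound by Sp1), TGANTCA (bound by AP-1) and AGATAA (bound by erythroid factors).
S100A6: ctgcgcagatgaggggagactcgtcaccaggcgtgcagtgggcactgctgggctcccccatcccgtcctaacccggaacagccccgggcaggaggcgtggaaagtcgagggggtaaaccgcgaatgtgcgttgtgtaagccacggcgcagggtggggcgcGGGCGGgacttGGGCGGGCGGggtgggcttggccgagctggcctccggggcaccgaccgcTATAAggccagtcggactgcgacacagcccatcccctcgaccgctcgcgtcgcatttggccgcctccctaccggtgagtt
ANXA2: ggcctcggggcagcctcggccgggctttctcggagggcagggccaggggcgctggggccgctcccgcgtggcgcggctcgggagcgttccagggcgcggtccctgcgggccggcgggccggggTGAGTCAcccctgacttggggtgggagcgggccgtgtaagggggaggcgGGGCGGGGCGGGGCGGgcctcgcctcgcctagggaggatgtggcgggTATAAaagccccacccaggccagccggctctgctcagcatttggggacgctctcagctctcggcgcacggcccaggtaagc
S100A10: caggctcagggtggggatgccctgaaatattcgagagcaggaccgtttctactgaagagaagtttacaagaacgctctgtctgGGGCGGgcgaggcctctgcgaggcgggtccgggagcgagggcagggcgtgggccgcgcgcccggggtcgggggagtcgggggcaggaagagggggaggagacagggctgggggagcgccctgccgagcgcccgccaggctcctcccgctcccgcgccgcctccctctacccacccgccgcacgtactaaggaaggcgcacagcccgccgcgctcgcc
S100A11: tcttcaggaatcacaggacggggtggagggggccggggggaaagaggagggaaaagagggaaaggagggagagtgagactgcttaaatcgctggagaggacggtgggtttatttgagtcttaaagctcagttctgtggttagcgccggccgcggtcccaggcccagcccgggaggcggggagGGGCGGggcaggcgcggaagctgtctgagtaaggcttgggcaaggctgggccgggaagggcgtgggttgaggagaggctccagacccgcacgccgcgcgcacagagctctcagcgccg

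The S100A6 and ANXA2 windows were alike in holding TATAA, whose first base lay 30 bases before the start in S100A6 and 31 before it in ANXA2, together with 3 GGGCGG matches, of which the 2 nearest the start in S100A6 and all 3 in ANXA2 overlapped one another. The ANXA2 window also held TGANTCA, 127 bases before the start. The S100A10 and S100A11 windows held 1 GGGCGG match each and no TATAA. Over all 35116 RefSeq promoter windows of this length, 20.4% held TATAA, 45.0% GGGCGG, 7.71% TGANTCA and 10.3% AGATAA. CpG dinucleotides numbered 31 in S100A6, 32 in ANXA2, 32 in S100A10 and 22 in S100A11, against a median of 14 over all windows and quartiles of 4 and 28. The ANXA1 window also held TATAA 31 bases before the start, and it differed from these in holding 0 CpG. TATAA was found as well in the S100A4 window, 31 bases before the start, and in 1 of the S100A13 windows, at 30 and 29 bases. The ANXA4, ANXA5 and ANXA6 windows held none. All 10 members matched the RefSeq table, S100A13 with 3 windows, ANXA4 and ANXA6 with 2 each, and the others with 1. A match describes letters and is not a measured site.

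Edit-3 was compared with K562 to describe the edited clone against the parental line. ANXA2, ANXA4, ANXA5, S100A6 and S100A10 rose, S100A4 and S100A11 fell, and S100A13, ANXA1 and ANXA6 did not pass the test, so 7 of 10 members passed at an adjusted p under 0.05 (edgeR's quasi-likelihood test, Benjamini-Hochberg) where 39.2% of all genes tested did. Of all genes, 20.6% were higher and 18.6% lower. The CPM of the 4 edit-3 libraries did not overlap that of the 4 K562 libraries for 6 members, where this held for 34.0% of all genes. The median log2 fold change was 0.41 over the 10 members, 0.30 over the 8 that passed the filter in every line, and 0.0 over all genes tested.

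The resistant subline was set against its parent K562 to see what came with drug resistance, and edit-3 against K/VP.5 to see the edited clone beside the line it was made from. In K/VP.5 versus K562, ANXA5 and ANXA6 rose and S100A6 and S100A11 fell. These 4 of 10 members stood near the background of 36.6% of all genes called, with 18.3% higher and 18.3% lower, and groups without overlap numbered 5 of 10 beside 37.4%. In edit-3 versus K/VP.5, S100A6, ANXA2 and ANXA4 rose and ANXA6 fell, again 4 of 10, where 23.6% of all genes were called, 12.9% higher and 10.6% lower, and 5 of 10 did not overlap beside 26.0%. Over all genes the median log2 fold change was 0.0 in both comparisons. Over the 10 members it was 0.01 for K/VP.5 versus K562 and 0.34 for edit-3 versus K/VP.5, and over the 8 that passed the filter in every line it was 0.01 and, with its sign turned, -0.14. S100A6 and S100A10 passed the filter on low counts only through edit-3, so counts and medians that include them are no support for a rise there. Among the other 8 members, which passed in every line, 5 were called in edit-3 versus K562, 3 in edit-3 versus K/VP.5 and 3 in K/VP.5 versus K562. The 3 comparisons share libraries and are not independent of each other.

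**Figure D1:**
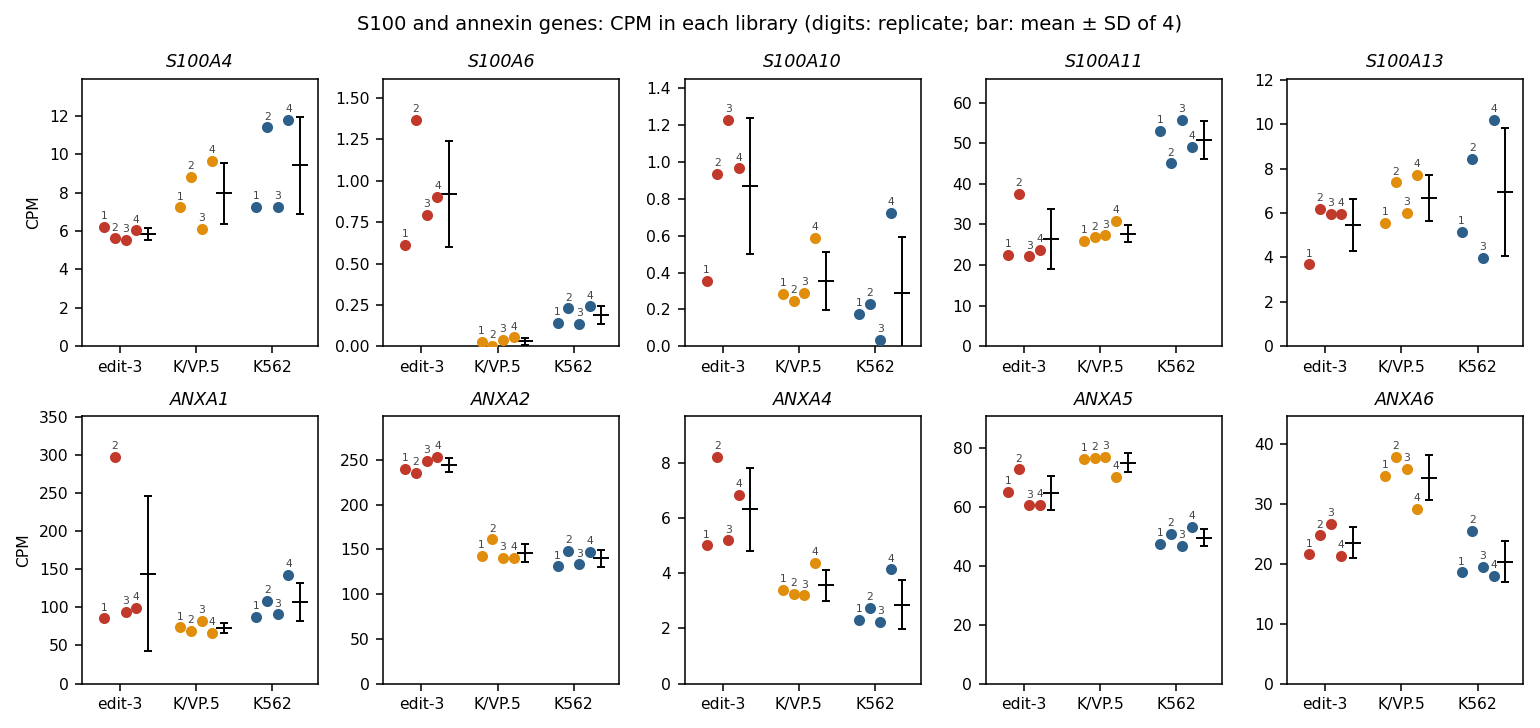
CPM of the 10 members in each library, 1 panel per gene with its own axis from 0, for edit-3, K/VP.5 and K562 from left to right; digits give the replicate and the black bar the mean ± SD of 4 libraries. The ANXA2 libraries of edit-3 sit between 235 and 253 CPM, above all others, and edit-3 replicate 2 stands alone at 297 CPM in ANXA1.

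ANXA2 encodes annexin A2, which binds membranes and actin and, with S100A10, gathers plasminogen and its activators at the cell surface. Its level was 240.0, 235, 249 and 253 CPM in edit-3 replicates 1 to 4, 143, 161, 140.3 and 140.3 CPM in K/VP.5 and, for K562, 131, 148, 133 and 147 CPM. Every edit-3 library lay above every library of the other lines, which overlapped each other. ANXA2 rose in edit-3 by a log2 fold change of 0.74 ± 0.07 (SE) over K/VP.5 and 0.80 ± 0.07 over K562 (edgeR, Benjamini-Hochberg adjusted p = 2e-06 and 3.2e-07). Between K/VP.5 and K562 the value was 0.07 ± 0.07, with a 95% interval from -0.08 to 0.21 and an adjusted p of 0.51. In bulk RNA, fewer cells with a transcript and less of it per cell cannot be told apart. ANXA2 has a processed pseudogene, ANXA2P2, whose reads came to 4.48% to 5.03% of those of ANXA2 in edit-3, 4.1% to 5.19% in K/VP.5 and 4.31% to 5.76% in K562, and how reads that match both were counted was not given in the sources used here. The pseudogene moved with the gene, by 0.77 ± 0.11 on the log2 scale in edit-3 versus K/VP.5 and in edit-3 versus K562 (adjusted p = 0.00014 and 6.4e-05).

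S100A10, also called p11, is an S100 protein that no longer binds calcium and sits with annexin A2 in a heterotetramer. Its reads were few: 11, 28, 34 and 32 in edit-3 replicates 1 to 4, 10, 7, 8 and 22 in K/VP.5, and 5, 7, 1 and 18 in K562. As levels these were 0.356, 0.934, 1.23 and 0.965 CPM in the edit-3 libraries, 0.283, 0.248, 0.291 and 0.586 CPM in K/VP.5 and, for K562, 0.177, 0.229, 0.0341 and 0.724 CPM. Edit-3 replicate 1 lay within the range of both other lines, so the groups overlapped. Pooled over the 4 libraries, the level was 0.862 CPM in edit-3 (exact Poisson 95% interval 0.705 to 1.04, counting error only), 0.366 CPM in K/VP.5 (0.269 to 0.486) and 0.274 CPM in K562 (0.186 to 0.390). The log2 fold change in edit-3 versus K562 was 1.62 ± 0.56 (SE, adjusted p = 0.034). S100A10 passed the filter on low counts only through edit-3, so this call of a rise is tied to that filter. This call was lost without edit-3 replicate 2, 3 or 4 or K562 replicate 1, 2 or 3, at adjusted p-values of 0.065 to 0.091, and without K562 replicate 4 the log2 fold change was 2.52. Versus K/VP.5 the value was 1.26 ± 0.53 (adjusted p = 0.10), and it passed without edit-3 replicate 1 (adjusted p = 0.038) and in a fit of these lines alone (adjusted p = 0.034). K/VP.5 versus K562 gave 0.36 ± 0.62, with a 95% interval from -0.97 to 1.69, and without K562 replicate 4 it gave 1.26. The pooled K562 level was 0.148 CPM without K562 replicate 4, which held 18 of the 31 reads. Summed over 4 libraries, reads of ANXA2 outnumbered those of S100A10 by 283 to 1 in edit-3, 398 to 1 in K/VP.5 and 509 to 1 in K562. Single libraries ran from 203 to 675 in edit-3, 239 to 650.4 in K/VP.5 and 202 to 3886 in K562 and overlapped, and the K562 ratio was 933 without K562 replicate 4.

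S100A6, or calcyclin, binds the ubiquitin ligase component CACYBP and several annexins. Its reads numbered 19, 41, 22 and 30 in edit-3 replicates 1 to 4, 1, 0, 1 and 2 in K/VP.5, and 4, 7, 4 and 6 in K562. That made 0.614, 1.37, 0.793 and 0.904 CPM in the edit-3 libraries, 0.0283, 0.0, 0.0364 and 0.0533 CPM in K/VP.5 and, for K562, 0.141, 0.229, 0.137 and 0.241 CPM. The lines fell into 3 ranges without overlap, edit-3 highest and K/VP.5 lowest. Pooled levels were 0.919 CPM in edit-3 (exact Poisson 95% interval 0.757 to 1.11), 0.0311 CPM in K/VP.5 (0.00848 to 0.0797) and 0.186 CPM in K562 (0.115 to 0.284). S100A6 rose in edit-3 by 4.72 ± 0.47 on the log2 scale over K/VP.5 and by 2.28 ± 0.35 over K562 (adjusted p = 3.4e-06 and 0.00011). It fell in K/VP.5 by 2.44 ± 0.61 against K562 (adjusted p = 0.0056). The 4 reads in K/VP.5 set the size of the folds against it, which depend on the count model. All 3 calls held without any 1 library of the lines compared, at adjusted p-values of at most 0.017. S100A6 passed the filter on low counts only through edit-3, which stayed in all of these fits. Its rise in edit-3 is tied to that filter, so the p-values and the fits without 1 library are no separate support for a rise. A fit of K/VP.5 and K562 alone did not test S100A6, so its fall in K/VP.5 has no value there. Even in edit-3 the level was low beside ANXA2, 1.37 against 146 CPM per kilobase of the principal transcript.

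S100A11 binds the tail of annexin A1 and was the S100 member with the highest level per length in each line. Its level was 22.4, 37.5, 22.1 and 23.8 CPM in edit-3 replicates 1 to 4, 25.9, 26.8, 27.3 and 30.8 CPM in K/VP.5 and, for K562, 53.0, 45.0, 55.8 and 49.1 CPM. All K562 libraries lay above all libraries of the sublines, which overlapped. S100A11 fell in edit-3 by 0.94 ± 0.15 on the log2 scale against K562 and in K/VP.5 by 0.87 ± 0.15 against K562 (adjusted p = 0.00013 and 0.00027). Edit-3 versus K/VP.5 gave -0.07 ± 0.15 with a 95% interval from -0.38 to 0.25 (adjusted p = 0.80). Without edit-3 replicate 2, the highest of its line, that value was -0.28 and passed the test (adjusted p = 0.040).

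ANXA1, annexin A1 or lipocortin, restrains inflammation through formyl peptide receptors in myeloid cells. Its level was 85.6, 297, 94.5 and 99.7 CPM in edit-3 replicates 1 to 4, 73.8, 69.0, 82.2 and 66.7 CPM in K/VP.5 and, for K562, 87.6, 108, 90.7 and 142 CPM. K/VP.5 lay below both other lines in every library, and edit-3 replicate 2 lay above all other libraries. No comparison passed the test: the log2 fold change was 0.99 ± 0.37 for edit-3 versus K/VP.5, 0.43 ± 0.37 for edit-3 versus K562 and -0.55 ± 0.37 for K/VP.5 versus K562 (adjusted p = 0.086, 0.41 and 0.29). Edit-3 replicate 2 decided these values. Without it, edit-3 versus K/VP.5 gave 0.356 (adjusted p = 0.10), edit-3 versus K562 turned to -0.199 (adjusted p = 0.32), and K/VP.5 versus K562, where that library enters only through the shared spread, kept -0.555 and passed (adjusted p = 0.0052). A fit of K/VP.5 and K562 alone also passed (adjusted p = 0.016), and with the replicate number as a block it did not (adjusted p = 0.090). In edit-3 versus K/VP.5 the value was 1.17 and just passed without edit-3 replicate 1 (adjusted p = 0.050), and it was 0.978 and passed in DESeq2 (adjusted p = 0.047).

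**Figure D2:**
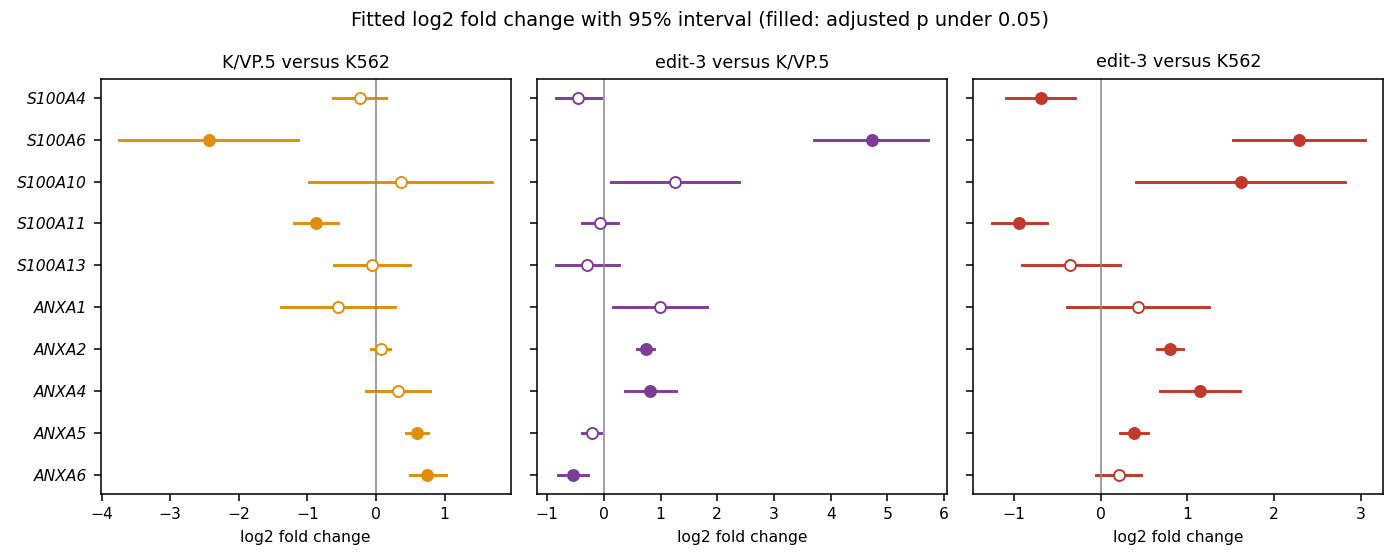
Fitted log2 fold change of each member (horizontal axis) with its 95% interval, 1 panel per comparison with its own axis; filled points passed an adjusted p under 0.05. S100A6 is the member farthest from 0 in each panel, and the intervals of ANXA2 are the narrowest of the members called in edit-3.

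ANXA5 encodes annexin A5, which binds phosphatidylserine and is used in the laboratory to stain dying cells. Its level was 65.0, 72.6, 60.4 and 60.7 CPM in edit-3 replicates 1 to 4, 76.2, 76.5, 76.8 and 70.2 CPM in K/VP.5 and, for K562, 47.4, 50.7, 46.8 and 53.2 CPM. K562 lay below both sublines in every library, and edit-3 replicate 2 lay within the range of K/VP.5. ANXA5 rose by 0.60 ± 0.077 on the log2 scale in K/VP.5 versus K562 and by 0.38 ± 0.077 in edit-3 versus K562 (adjusted p = 2.1e-05 and 0.00097). Edit-3 versus K/VP.5 gave -0.21 ± 0.076 (adjusted p = 0.059), which passed without edit-3 replicate 2 (-0.27, adjusted p = 0.014) or without K/VP.5 replicate 4 (-0.26, adjusted p = 0.040), and in DESeq2 with all libraries (-0.217, adjusted p = 0.031).

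ANXA6 encodes annexin A6, the annexin with a duplicated core, which acts in endocytosis and in membrane repair. Its level was 21.6, 24.8, 26.7 and 21.3 CPM in edit-3 replicates 1 to 4, 34.8, 37.9, 35.9 and 29.2 CPM in K/VP.5 and, for K562, 18.6, 25.6, 19.5 and 18.0 CPM. K/VP.5 stood above both other lines in every library, and edit-3 and K562 overlapped. ANXA6 rose by 0.75 ± 0.12 on the log2 scale in K/VP.5 versus K562 and fell by 0.54 ± 0.12 in edit-3 versus K/VP.5 (adjusted p = 0.00019 and 0.0042). Edit-3 versus K562 gave 0.21 ± 0.12, with a 95% interval from -0.05 to 0.47 (adjusted p = 0.20), and passed at 0.32 without K562 replicate 2 (adjusted p = 0.040).

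ANXA4 encodes annexin A4, found on secretory and apical membranes of epithelia. Its level was 5.01, 8.21, 5.19 and 6.84 CPM in edit-3 replicates 1 to 4, 3.4, 3.26, 3.2 and 4.37 CPM in K/VP.5 and, for K562, 2.30, 2.75, 2.25 and 4.14 CPM. All edit-3 libraries lay above all others, and replicate 4 was the highest library of K/VP.5 and of K562. ANXA4 rose in edit-3 by 0.82 ± 0.21 on the log2 scale over K/VP.5 and by 1.15 ± 0.22 over K562 (adjusted p = 0.011 and 0.00062). K/VP.5 versus K562 gave 0.32 ± 0.22 (adjusted p = 0.28), and without K562 replicate 4 it gave 0.548 and passed (adjusted p = 0.046). ANXA4 overlaps AAK1 on the opposite strand, with 3846, 3323 and 2892 AAK1 reads in edit-3, K/VP.5 and K562, against 772, 464 and 318 reads of ANXA4. The strand setting of the counting was not given in the sources used here, so the part of such reads in ANXA4 was not tested.

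S100A4 binds nonmuscle myosin and is known for its link to cell movement and metastasis. Its level was 6.21, 5.61, 5.52 and 6.03 CPM in edit-3 replicates 1 to 4, 7.23, 8.82, 6.11 and 9.67 CPM in K/VP.5 and, for K562, 7.25, 11.4, 7.24 and 11.8 CPM. Edit-3 lay below every K562 library, and K/VP.5 overlapped both. S100A4 fell by 0.69 ± 0.19 on the log2 scale in edit-3 versus K562 (adjusted p = 0.0084). The value was -0.45 ± 0.19 for edit-3 versus K/VP.5 and -0.24 ± 0.18 for K/VP.5 versus K562 (adjusted p = 0.10 and 0.34). A fit of edit-3 and K/VP.5 alone called S100A4 lower in edit-3 (-0.462, adjusted p = 0.043).

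S100A13 takes part in the release of FGF1, a growth factor without a signal peptide. Its level was 3.68, 6.17, 5.95 and 5.97 CPM in edit-3 replicates 1 to 4, 5.56, 7.37, 6.0 and 7.7 CPM in K/VP.5 and, for K562, 5.13, 8.42, 3.99 and 10.2 CPM. The lines overlapped, and K562 alone spanned nearly the range of all. No comparison passed: the log2 fold change was -0.29 ± 0.26 for edit-3 versus K/VP.5, -0.35 ± 0.26 for edit-3 versus K562 and -0.06 ± 0.26 for K/VP.5 versus K562 (adjusted p = 0.47, 0.33 and 0.89). S100A13 overlaps S100A1 on the opposite strand, which held 234, 347 and 384 reads in edit-3, K/VP.5 and K562, and S100A4 overlaps S100A3 on the same strand, which held 32, 34 and 12.

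**Figure D3:**
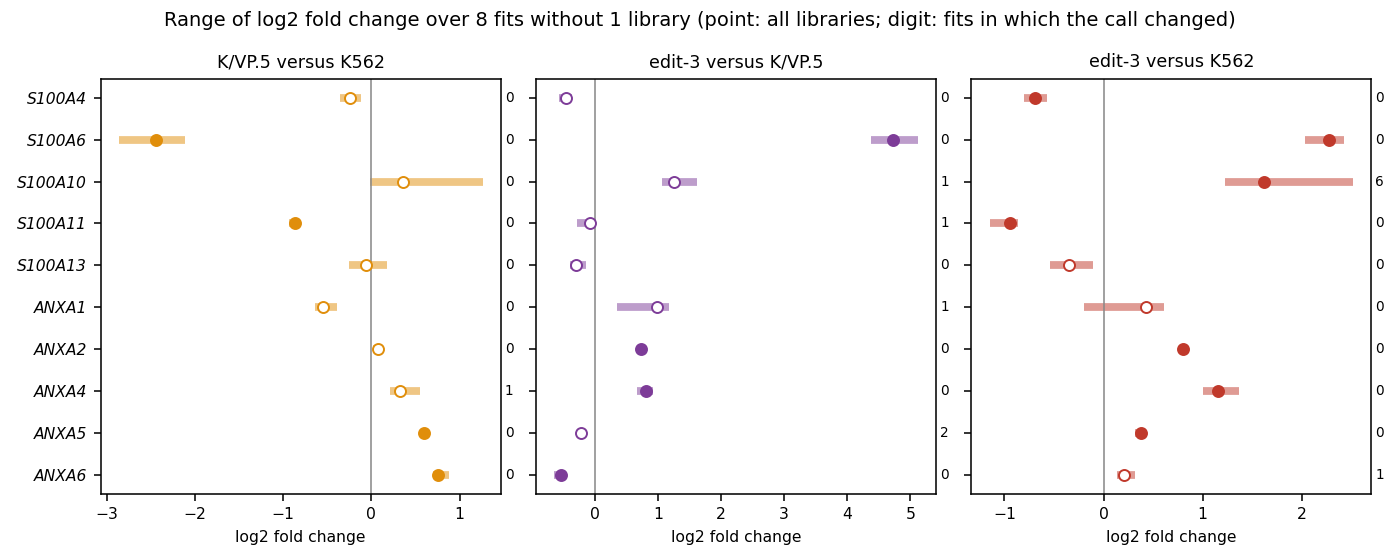
Log2 fold change of each member from all libraries (point, filled where called) and its range over 8 fits that each leave out 1 library of the lines compared (bar); the digit to the right of each panel counts the fits in which the call changed. S100A10 in edit-3 versus K562 changed in 6 of 8 fits, and the bar of ANXA1 there crosses 0.

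Per kilobase of the principal transcript, ANXA2 was the highest member in edit-3 at 146 CPM per kilobase and in K/VP.5 at 87.2, and S100A11 was first in K562 at 85.4 beside 83.4 for ANXA2, an order that turned without K562 replicate 1 or 3. ANXA1 followed in edit-3 at 65.3, or 42.2 without edit-3 replicate 2 and still second, and S100A11 in K/VP.5 at 46.6. S100A6 and S100A10 filled ranks 9 and 10 in every line. Summed over the 5 S100 members, levels were 39.6 ± 8.3 CPM in edit-3, 42.7 ± 4.5 CPM in K/VP.5 and 67.5 ± 3.1 CPM in K562 (SD, n = 4). The K562 sums of 65.2 to 72.1 CPM lay above those of edit-3, 33.3 to 51.6 CPM, and of K/VP.5, 39.0 to 48.8 CPM. The 5 annexin members summed to 417 to 638 CPM in edit-3, 311 to 348 CPM in K/VP.5 and 287 to 364 CPM in K562. Edit-3 thus lay above both, with the top of its range set by edit-3 replicate 2 and ANXA1.

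Most other genes of the families were below the filter in these cells. Of 15 other S100 genes 4 passed the filter, S100A1, S100A14, S100A16 and S100P, and of 8 other annexins 4 passed, ANXA3, ANXA7, ANXA9 and ANXA11. S100A8 and S100A9, the abundant S100 proteins of granulocytes and monocytes, had 1 read each in edit-3, 0 and 5 reads in K/VP.5, and 1 each in K562, over 4 libraries. In K/VP.5 versus K562 none of the 8 tested genes passed, where 36.6% of all genes tested did. In edit-3, 1 gene of each family rose over both other lines. Of all genes, 12.9% were higher and 10.6% lower in edit-3 versus K/VP.5, and 20.6% and 18.6% in edit-3 versus K562. S100A16 averaged 9.06 ± 3.2 CPM in edit-3, 1.28 ± 0.33 CPM in K/VP.5 and 0.998 ± 0.35 CPM in K562, a log2 fold change of 2.82 ± 0.29 over K/VP.5 and 3.19 ± 0.30 over K562 (adjusted p = 4.4e-06 and 7.5e-07). ANXA3 averaged 8.98 ± 3.2 CPM in edit-3, 0.728 ± 0.23 CPM in K/VP.5 and 0.384 ± 0.22 CPM in K562, or 3.59 ± 0.34 over K/VP.5 and 4.54 ± 0.38 over K562 (adjusted p = 2.8e-06 and 2.8e-07). S100A1 fell by 0.83 ± 0.24 in edit-3 versus K562, with 1.92 ± 0.58 CPM in edit-3 and 3.42 ± 0.85 CPM in K562 (adjusted p = 0.013). ANXA7 and ANXA11, widely expressed annexins, stood close together over the lines: ANXA7 averaged 136, 137 and 136 CPM in edit-3, K/VP.5 and K562, and ANXA11 averaged 215, 207 and 218 CPM.

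**Figure D4:**
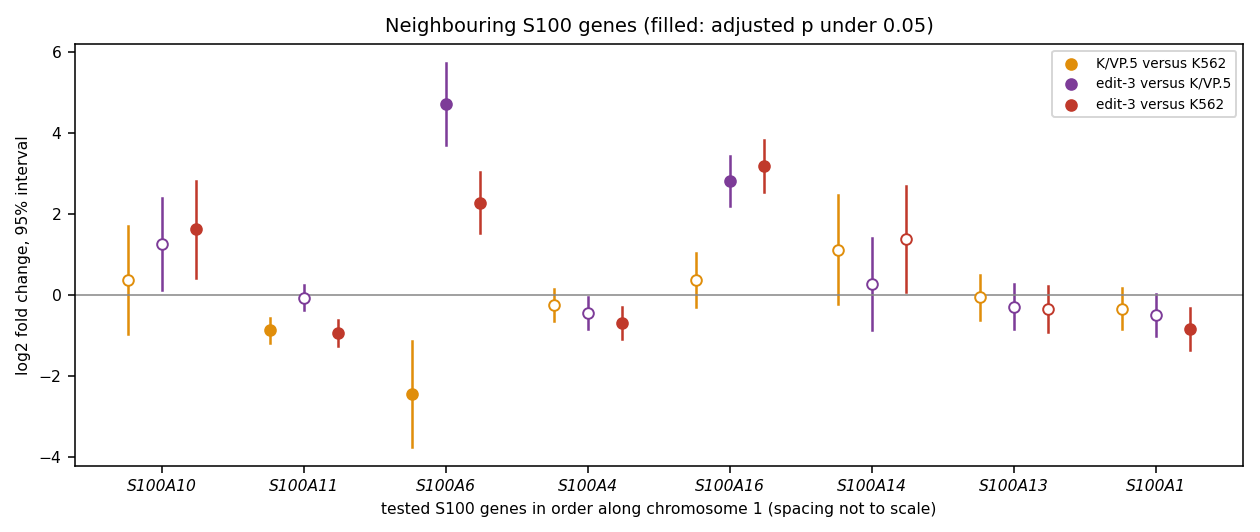
Log2 fold change with its 95% interval (vertical axis) of the 8 tested S100 genes in their order along chromosome 1, evenly spaced, for the 3 comparisons; filled points passed an adjusted p under 0.05. S100A6 and S100A16 lie highest in both edit-3 comparisons, and S100A4 between them lies below 0.

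Genes side by side on chromosome 1 did not move as a block. Of 15 S100A genes there 8 were tested and 2 had 0 reads. S100A6 rose in edit-3 over both other lines, while S100A4, with 7368 bases between the genes, fell in edit-3 versus K562. S100A16 rose over both as well, while S100A14, 1109 bases from it, gave 0.26 over K/VP.5 and 1.39 over K562 (adjusted p = 0.77 and 0.089). Among the 20 nearest tested genes of each S100 member, 10 on each side, the median log2 fold change lay between -0.23 and 0.09 in the 3 comparisons, and each such set held the other 4 S100 members. Around ANXA5 the neighbours moved more with the gene: their median was 0.23 in K/VP.5 versus K562, where 18 of 20 had its sign, and 0.22 in edit-3 versus K562, where 17 of 20 did. Around ANXA1 the median was -0.37 in K/VP.5 versus K562, with 14 of 20 of its sign, and -0.38 in edit-3 versus K562, with 6 of 20. ANXA2, ANXA4 and ANXA6 had neighbours at medians of -0.14 to 0.14 in the 3 comparisons. Around ANXA6 in edit-3 versus K/VP.5, 0 of 20 neighbours were called higher and 7 lower, and 13 of 20 had its sign. In K/VP.5 versus K562, 11 of 20 had the sign of ANXA6, and in edit-3 versus K562, 8 of 20 did. Around ANXA5, 7 were called higher and 0 lower in K/VP.5 versus K562, and 8 and 0 in edit-3 versus K562. Around ANXA1, 2 were called higher and 9 lower in K/VP.5 versus K562, and 0 and 9 in edit-3 versus K562. Over all genes, 12.9% were higher and 10.6% lower in edit-3 versus K/VP.5. These shares were 18.3% and 18.3% in K/VP.5 versus K562 and 20.6% and 18.6% in edit-3 versus K562. No test of neighbours was made.

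Known partners of the proteins, taken from a list of 18 genes with 15 tested, moved in both directions. For this list and those that follow, the shares of all genes called were 23.6% in edit-3 versus K/VP.5, 36.6% in K/VP.5 versus K562 and 39.2% in edit-3 versus K562. No list was tested against these shares. In edit-3 versus K/VP.5, 5 partners rose and 1 fell, with a median log2 fold change of 0.04. PLA2G4A, the cytosolic phospholipase A2 that S100A10 and annexins restrain, fell by 4.29 ± 0.19, to 1.46 ± 0.19 CPM in edit-3 against 28.5 ± 4.8 CPM in K/VP.5 (adjusted p = 5.4e-10). DLC1, whose protein binds S100A10, rose by 1.96 ± 0.11, to 22.8 ± 1.8 CPM in edit-3 against 5.86 ± 0.57 CPM in K/VP.5 (adjusted p = 1.1e-08). PRKCA, a protein kinase C, rose by 0.50 ± 0.10 and PLSCR1, a phospholipid scramblase, by 0.38 ± 0.084 (adjusted p = 0.0019 and 0.0040). These changes of PLA2G4A and DLC1 were opposite in sign to those in K/VP.5 versus K562, a comparison that shares the K/VP.5 libraries.

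In K/VP.5 versus K562, 2 of the 15 partners rose and 5 fell, with a median of -0.06. PLA2G4A rose by 3.79 ± 0.18, with 28.5 ± 4.8 CPM in K/VP.5 and 2.05 ± 0.49 CPM in K562, and DLC1 fell by 2.31 ± 0.11, with 5.86 ± 0.57 CPM in K/VP.5 and 29.1 ± 3.6 CPM in K562 (adjusted p = 6e-10 and 8.4e-10). PLSCR1 fell by 0.65 ± 0.084 and SUGT1, a cochaperone that binds S100A6, rose by 0.48 ± 0.12 (adjusted p = 2e-05 and 0.0049). In edit-3 versus K562, 3 rose and 4 fell, with a median of -0.12. AHNAK, the giant scaffold bound by annexin A2 and S100A10, rose by 1.55 ± 0.46, with 408 ± 168 CPM in edit-3 and 139.9 ± 79.0 CPM in K562 (adjusted p = 0.023), and the call was lost without edit-3 replicate 2 or 4 or K562 replicate 1 or 3 (adjusted p up to 0.065). PRKCA rose by 0.56 ± 0.10 and RASA1, a Ras GTPase-activating protein, by 0.36 ± 0.12 (adjusted p = 0.00039 and 0.031), and RASA1 lost its call without edit-3 replicate 2 or 4 or K562 replicate 1, 2 or 3 (adjusted p up to 0.10). DLC1 fell by 0.35 ± 0.11 (adjusted p = 0.016), and without K562 replicate 1 the value was -0.30 and did not pass (adjusted p = 0.055).

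Of 13 receptors and surface proteases, 8 were tested. FPR1 and FPR2, the receptors of annexin A1, had 6 and 4 reads in edit-3, 0 and 1 in K/VP.5, and 3 and 1 in K562. In edit-3 versus K/VP.5, 3 genes rose and 1 fell (median 0.46). FPR3, a formyl peptide receptor, rose at a low level, 0.626 ± 0.29 CPM in edit-3 against 0.0339 ± 0.052 CPM in K/VP.5 (adjusted p = 0.0077). It had 4 reads in all in K/VP.5, and its log2 fold change of 4.15 was 5.49 without K/VP.5 replicate 3. No K/VP.5 library reached the filter cutoff of 0.338 CPM for FPR3. The gene was tested only through edit-3 and K562, so this call is not independent of the filter. CTSB, the protease cathepsin B, rose by 0.54 ± 0.12 and BSG, a surface protein that induces matrix proteases, fell by 0.45 ± 0.09 (adjusted p = 0.0049 and 0.0018). PLAUR, the urokinase receptor, rose by 0.39 ± 0.13 in this comparison (adjusted p = 0.044), a call lost without any 1 library other than edit-3 replicate 1 (adjusted p up to 0.12).

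In edit-3 versus K562, PLAUR rose by 0.58 ± 0.13, with 9.12 ± 1.0 CPM in edit-3 and 6.09 ± 0.99 CPM in K562 (adjusted p = 0.0024). CTSB rose by 0.35 ± 0.12 (adjusted p = 0.035), which was lost without edit-3 replicate 2 or 4 or K562 replicate 1, 2 or 3 (adjusted p up to 0.11). These 2 were the receptors and proteases called there (median 0.09). In K/VP.5 versus K562, 2 rose and 1 fell (median -0.27). PLAU, or urokinase, fell by 1.74 ± 0.54 in K/VP.5 (adjusted p = 0.025), which was lost without K/VP.5 replicate 1, 2 or 4 or K562 replicate 3 (adjusted p up to 0.064). PLAT, the tissue plasminogen activator, rose by 1.54 ± 0.55 (adjusted p = 0.047), which was lost without any 1 of the 8 libraries (adjusted p up to 0.11). BSG rose by 0.28 ± 0.09 (adjusted p = 0.026), which was lost without K/VP.5 replicate 2, K/VP.5 replicate 4, K562 replicate 1 or K562 replicate 3 (adjusted p up to 0.089).

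Of 18 genes of membrane repair and calcium-dependent membrane binding, 17 were tested. In edit-3 versus K562, 4 rose and 5 fell (median -0.14). The 4 with the largest absolute log2 fold change are named here, and none of the 5 that fell is among them. ESYT1 averaged lower in edit-3, at 295 ± 46 CPM against 752 ± 107 CPM in K562. DYSF, or dysferlin, a repair protein of muscle membranes, rose by 1.83 ± 0.21, with 57.9 ± 5.1 CPM in edit-3 and 16.3 ± 5.8 CPM in K562 (adjusted p = 1.2e-05). CAPN2, the catalytic subunit of a calpain, rose by 1.65 ± 0.14, with 257 ± 31 CPM in edit-3 and 82.1 ± 18 CPM in K562 (adjusted p = 2.7e-07). TRIM72, known for membrane repair in muscle, rose by 1.42 ± 0.37 at a low level of 0.341 ± 0.10 CPM in edit-3 and 0.123 ± 0.043 CPM in K562 (adjusted p = 0.0068). MYOF, or myoferlin, had 158 reads in edit-3 and 3 in K562 over 4 libraries. Its level was 0.0646 to 2.47 CPM in edit-3 and 0 to 0.0707 CPM in K562 (adjusted p = 0.0024). No K562 library reached the filter cutoff of 0.338 CPM for TRIM72 or MYOF. Both were tested only through the sublines, so their calls over K562 are not independent of the filter.

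In edit-3 versus K/VP.5, 3 genes of this list rose and 3 fell (median -0.02). CAPN2 rose by 1.29 ± 0.14 against 105 ± 9.3 CPM in K/VP.5 (adjusted p = 7.2e-06), while ESYT1, an endoplasmic reticulum tether, fell by 0.51 ± 0.11 and CPNE3, a copine, by 0.32 ± 0.065 (adjusted p = 0.0035 and 0.0021). MYOF rose by 2.42 ± 0.77 (adjusted p = 0.039), a call lost without any 1 library other than edit-3 replicate 1 and K/VP.5 replicate 4 (adjusted p up to 0.13); its log2 fold change was 3.23 without K/VP.5 replicate 4. In K/VP.5 versus K562, 2 rose and 5 fell (median -0.13). DYSF rose by 2.23 ± 0.21, with 76.1 ± 10.5 CPM in K/VP.5 and 16.3 ± 5.8 CPM in K562 (adjusted p = 2.4e-06), and TRIM72 by 1.67 ± 0.36 (adjusted p = 0.0019). ESYT1 fell by 0.83 ± 0.11 and CPNE1, another copine, by 0.33 ± 0.069 (adjusted p = 3.2e-05 and 0.0015).

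Annexins and S100 proteins are also expressed in connective tissue and epithelium, so markers of those cells were read beside them. Of 7 stromal markers, 3 averaged at least 1 CPM in edit-3, 3 in K/VP.5 and 2 in K562, and they summed to 1687.3 to 2967.9 CPM in edit-3, 210.3 to 291 CPM in K/VP.5 and 6.97 to 13.6 CPM in K562. COL1A2, a chain of type I collagen, made up most of each sum, at 2491.3 CPM in edit-3, 229.5 CPM in K/VP.5 and 6.82 CPM in K562. All 4 tested stromal markers were called higher in edit-3 versus K562, 3 of 4 were higher in K/VP.5 versus K562, and 1 was higher and 1 lower in edit-3 versus K/VP.5. COL1A1, the other chain, averaged 7.55 CPM in edit-3, 18.8 CPM in K/VP.5 and 1.47 CPM in K562. PDGFRB averaged 5.02, 1.47 and 0.962 CPM and THY1 0.464, 0.451 and 0.201 CPM in the same order of lines. COL3A1, which was below the filter, went the other way, at 0.0635 CPM in edit-3, 0.103 CPM in K/VP.5 and 0.67 CPM in K562. LUM, a fibroblast proteoglycan, had 0 reads in edit-3, 1 in K/VP.5 and 0 in K562, and DCN had 2, 2 and 1. Of 5 epithelial markers, 4 averaged at least 1 CPM in edit-3, 5 in K/VP.5 and 4 in K562, with sums of 1553.2 to 2555.9 CPM in edit-3, 1061.3 to 1657.9 CPM in K/VP.5 and 902 to 1981 CPM in K562. These sums overlapped. EPCAM, an adhesion protein of epithelia, was above both other lines in every edit-3 library. It stood at 308 to 352 CPM in edit-3, 144 to 161 CPM in K/VP.5 and 157 to 175 CPM in K562. CDH1 went the other way against K/VP.5, at 0.0323 to 0.501 CPM in edit-3, 1.62 to 3.73 CPM in K/VP.5 and 0.177 to 0.376 CPM in K562. KRT8 and KRT18 overlapped over the lines. KRT19 overlapped between edit-3 and K562 and lay above K/VP.5 in every edit-3 library. Of the 5, 1 was called higher in edit-3 versus K562, 1 higher and 1 lower in edit-3 versus K/VP.5, and 1 higher in K/VP.5 versus K562. Of 7 macrophage and granulocyte markers 1 reached 1 CPM in each line, with sums of 3.68 to 5.34, 4.05 to 4.76 and 2.23 to 3.3 CPM in edit-3, K/VP.5 and K562. Of 5 lymphocyte markers 2 did, with sums of 21.9 to 53.7, 11.3 to 19.1 and 40.3 to 82.4 CPM, and MS4A1 had 0 reads in all lines. The part of these markers in the results was not tested.

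The genes whose log CPM followed 3 members most closely over the 12 libraries were listed for ANXA2, S100A6 and ANXA5, the members with the highest F statistics over the 3 lines (86.6, 57.6 and 30.4). For ANXA2 these were DCAF5, TSPAN5 and SYNE3, with Pearson's r of 0.985, 0.983 and 0.982. For S100A6 they were TTC23, BMX and SRGN (0.989, 0.988 and 0.982), and for ANXA5 CYBRD1, NRN1 and RGS2 (0.975, 0.973 and 0.969). TSPAN5 averaged 27.7 CPM in edit-3, 4.78 CPM in K/VP.5 and 4.45 CPM in K562, the order of ANXA2, and CYBRD1 averaged 20.5, 24.7 and 12.6 CPM, the order of ANXA5. The 12 libraries come from 3 lines, so any gene that differs between the lines in the same order scores high, and no p is given.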

How the data were processed

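The deposited data are 1 table of raw counts of reads for 58395 genes. Per the submitters' processing notes, HISAT2 2.1.0 and featureCounts of Subread 1.5.1 were used with GRCh38. Annotation release, strand setting and the counting of multiply matched reads were not given in the sources used here. Libraries were assigned by source name. The free-text description names parental cells for every library and was not used.

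From the deposited counts, CPM with TMM-scaled library sizes were computed. filterByExpr kept 18286 genes (for these libraries, CPM of at least 0.338 in 4 libraries). All 12 libraries entered 1 model with a term for each line in edgeR 4.0.16 (R 4.3.3), tested by robust quasi-likelihood. Benjamini-Hochberg adjustment ran over all genes tested, with a threshold of 0.05. Every adjusted p in the text comes from edgeR unless DESeq2 1.42.0 is named. The SE is the log2 fold change divided by the square root of F. The steps were tested on simulated data.

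Libraries of a line differed by a chi-square per degree of freedom of 7.48 to 77.3, so none was a copy. Replicate numbers pair K/VP.5 with K562 in part, from the data and not the labels. Libraries with the same number deviated together from their line means, with correlations of 0.496, 0.281, 0.239 and 0.725. K/VP.5 replicate 1, however, followed K562 replicate 3 most closely. The main fit has no replicate block. Edit-3 was not paired.

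The members, the lists and the tests were chosen with earlier results of these data known. All members were named, and from each list up to 4 called genes per comparison with the largest log2 fold change. Genes were matched to GENCODE 29 by ID. Promoters are from RefSeq. Alternatives were other scalings, filters, DESeq2, fits of 2 lines, the replicate block and leaving out each library.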

Additional observations from a re-analysis of the deposited data

Results flagged for a closer look

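In 7 of 30 groups of 4 libraries, 1 per member and line, the highest or lowest library lay so far from the other 3 that its gap passed Dixon's 95% critical share of the range of the group. Chance flags about 1 in 20 such groups. ANXA1 in edit-3 replicate 2 stood at 297 CPM against 85.6 to 99.7 CPM in the other 3, and S100A11 in the same library at 37.5 CPM against 22.1 to 23.8 CPM. S100A13 in edit-3 replicate 1 stood at 3.68 CPM against 5.95 to 6.17 CPM. In K/VP.5 replicate 4, S100A10 was at 0.586 CPM against 0.248 to 0.291 CPM, ANXA4 at 4.37 CPM against 3.2 to 3.4 CPM, and ANXA5, the lowest of its group, at 70.2 CPM against 76.2 to 76.8 CPM. ANXA2 in K/VP.5 replicate 2 stood at 161 CPM against 140.3 to 143 CPM.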

How the results depend on the processing

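Of the 30 log2 fold changes of the members, none reversed or crossed the threshold under DESeq2 size factors or upper-quartile factors, which moved the median of all genes by at most 0.052. The counts of all genes called stayed within 1.5 times of the reported ones under every alternative run. In K/VP.5 versus K562, members called lower numbered 1 under a filter of 1 CPM in 4 libraries and 1 in a fit of those lines with a replicate block; in edit-3 versus K562, members called higher numbered 3 under that filter. S100A6 and S100A10 do not pass that filter, and they have no value under it or in fits of K/VP.5 and K562 alone. The fit of those lines without a block called 2 members lower, with ANXA1 (adjusted p = 0.016) in place of the untested S100A6. In edit-3 versus K/VP.5, with the replicate number as a block 7 members were called and 3 of them lower, with S100A4, S100A10 and ANXA5 added. The same counts, 7 and 3, came from those lines alone with a replicate block. Calls over all genes rose too, from 4309 to 5494 of 18286 with the block, and numbered 4925 in those lines alone with it. Edit-3 libraries matched the others by number in part: same-numbered deviations correlated at -0.166 to 0.568 with K/VP.5 and -0.150 to 0.675 with K562. Edit-3 replicates 1 and 4 followed the same-numbered library of each other line most closely, and replicates 2 and 3 did not. In edit-3 versus K/VP.5, members called lower numbered 2 with DESeq2 and 2 in a fit of the 2 lines. Leaving out 1 library gave 3 to 5 called higher and 1 to 3 lower. With all 12 libraries, the block changed no member's call in K/VP.5 versus K562 or edit-3 versus K562; in fits of 2 lines it moved ANXA1 in K/VP.5 versus K562 to an adjusted p of 0.090, against 0.016 without it, and S100A10 in edit-3 versus K562 to 0.043, against 0.067. Without 1 library, uncalled log2 fold changes turned sign for S100A10 (-0.024 to 1.26) and S100A13 (-0.247 to 0.184) in K/VP.5 versus K562, S100A11 (-0.281 to 0.010) in edit-3 versus K/VP.5 and ANXA1 (-0.199 to 0.611) in edit-3 versus K562; S100A13 also gave 0.011 in K/VP.5 and K562 alone with the block. The cause was not tested. S100A10 in edit-3 versus K562 lost its call with no filter (adjusted p = 0.066) and in a fit of those lines alone (0.067). Depth limits S100A6 and S100A10 most, at 4 and 31 reads in their lowest lines.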

Other observations

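Edit-3 replicate 2, the library with the high ANXA1, held further genes far above the other edit-3 libraries; they are named after their values were seen. The largest ratio to the next library was that of FAM129A, at 11.6 CPM in replicate 2 and 0.614 to 1.3 CPM in the other 3. CHAC1, an enzyme that breaks down glutathione and a target of the unfolded protein response, stood at 79.3 CPM against 6.63 to 16.9 CPM, and CTH, an enzyme of cysteine synthesis, at 37.7 CPM against 7.43 to 9.08 CPM. The plasminogen activators PLAT and PLAU stood at 9.48 CPM against 1.52 to 1.96 CPM and at 13.2 CPM against 2.23 to 3.28 CPM. ANXA1 ranked 27 of 11517 genes by this ratio, with 2.98. What made this library differ was not tested.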
